A study of Arabidopsis thaliana with 24 samples.

Results

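The average change in RNA levels under ozone across 4 lines of Arabidopsis thaliana, and the genes that changed the same way in each line, were measured in whole rosettes of 3-week-old plants. All 24 libraries of the series were used, 12 from plants given ozone and 12 from control plants, and line was a blocking factor. The lines were Col-0, which is the reference accession, CT101, of unstated origin, and the accessions Te and C24, chosen by the submitters because they differ in ozone sensitivity. Ozone was applied at 350 nL per L (350 ppb) over 2 h, and each library came from a pool of 10 to 15 rosettes, with 3 biological replicates for each of the 8 groups of line and treatment. All plants were grown in a mix of peat and vermiculite, at 22 °C by day and 19 °C at night with 12 h of light. The labels name no treatment other than ozone, and the time from the end of exposure to freezing was not stated.

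Ozone enters a leaf through the stomata and breaks down in the cell wall space into reactive oxygen species. Plants meet such an oxidative burst with calcium influx, kinase cascades and the hormones ethylene, salicylic acid and jasmonic acid, a set of reactions that overlaps widely with the defence against pathogens. Growth, photosynthesis and the light-dependent programmes of the rosette are commonly lowered during such responses.

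The libraries held between 13633768 and 25789925 counts of reads in annotated genes, and 20554 of 32678 loci passed the filter on low counts. The markers of the labelled tissue were present. The 20 leaf markers, which include RCA and GAPA, summed to between 94900 and 158000 counts per 1e6 counts of the library (CPM) in the control libraries and to between 50100 and 100000 CPM under ozone. Of 25 root markers 5 (EXPA18, RHS12, LRX1, CASP5 and NRT2.4) had no count in any library, and 21 stayed under 1 CPM in every library. Of 24 flower and pollen markers 5 (SUP, SPL, DYT1, ATA1 and ATA7) had no count in any library, and 23 stayed under 1 CPM. Of the root markers 4 passed the filter on low counts, and of the flower and pollen markers 2. The root list summed to 96 to 136 CPM in controls and 69.9 to 108 CPM under ozone, and the flower list to 1.08 to 3.25 and 1.23 to 2.73 CPM. In each line the ozone library numbered 2 stood nearest to the controls on the first principal component of log2 CPM. Without these 4 libraries 7525 genes were called higher and 8494 lower on average, and 4506 and 4295 in all 4 lines. In RNA from whole rosettes, fewer cells of a type and less RNA per cell cannot be told apart.

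Ozone changed most of the genes that could be measured. With line as a block, edgeR's quasi-likelihood test with Benjamini-Hochberg adjustment called 15993 of 20554 genes, 77.8% of those tested, at an adjusted p under 0.05. Of these, 7822 genes (38.1%) were higher and 8171 (39.8%) lower under ozone. The changes were of unlike size in the 2 directions. At least a 2-fold rise was seen in 3790 of the genes called, and at least a 2-fold fall in 1958. At least an 8-fold change was seen in 1076 genes that rose and in 43 that fell. The median average log2 fold change over all genes tested was -0.03. Scaling by library totals alone shifted all changes by -0.12, and then 6854 genes were called higher and 9396 lower. The first principal component of log2 CPM held 58.1% of the variance and separated all ozone from all control libraries.

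Many of these changes were found in each line on its own. In a model with a separate effect per line, 4445 genes (21.6%) were called higher in all 4 lines and 3644 (17.7%) lower in all 4 lines, together 39.4% of the genes tested. These 8089 genes are called shared here. All of them were also called on average. A change of at least 2-fold in every line was seen in 2313 of the shared genes that rose and 714 of those that fell. For 3230 genes (15.7%) the lowest of the 12 ozone libraries lay above the highest of the 12 controls, and for 1815 (8.83%) all ozone libraries lay below all controls. Another 1113 genes were called on average but in none of the lines, and 3734 were called in neither way. The counts of shared genes rested on certain libraries. Without the third C24 ozone library 2263 genes were shared downward. Without the 8 libraries numbered 1 it was 1289, and without the 8 numbered 3 it was 2697 upward and 1074 downward.

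**Figure D1:**
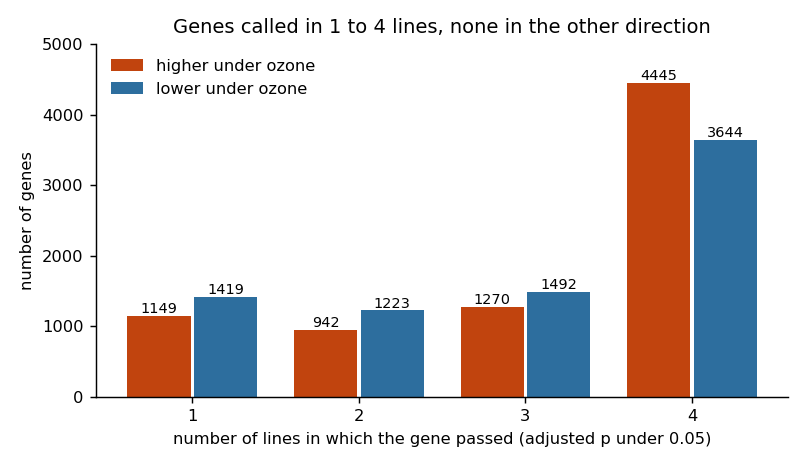
Number of genes (y axis) called higher or lower under ozone in exactly 1, 2, 3 or 4 of the 4 lines (x axis) and in the other direction in none. The bars for all 4 lines are the highest in both directions, with 4445 genes higher and 3644 lower, against 1270 and 1492 genes in exactly 3 lines.

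The shared genes were well expressed and spread evenly over the genome. Their median gene-wise mean level was 4.82 on the log2 CPM scale for genes that rose and 4.43 for genes that fell, against 3.81 for all genes tested and 2.56 for genes not called on average. Genes with more counts pass a test more easily. The shared genes that rose had a median of 12.7 CPM in controls, close to the 12 CPM of all genes tested, and 40.2 CPM under ozone. Those that fell had a median of 28 CPM in controls and 14.5 CPM under ozone. The share on each chromosome differed by less than 1 percentage point from that of all genes tested, for example 27.3% and 26.2% of the genes that rose and fell lay on chromosome 1, as did 26.5% of all. Protein-coding genes made up 98.8% and 99.4% of them and 97% of all genes tested.

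The 12 genes named for the largest shared rises included 3 cytochromes P450, 2 acyltransferases, 2 oxidoreductases and an NADPH oxidase. The rule that named these, the largest falls and the most even changes required that ozone and control libraries did not overlap. CYP82C3 (AT4G31950), a cytochrome P450 oxygenase, had between 0 and 0.233 CPM in the controls with a median of 0.0453, and between 2.06 and 76.8 CPM under ozone with a median of 27.9. The controls of every line were near the limit of detection. No ozone library was as low as a control, which was a condition for naming. AT1G26380 is a FAD-binding oxidase of the berberine bridge family. It had 0.0444 to 10.3 CPM in controls (median 2.03) and 332 to 976 CPM under ozone (median 538). Its log2 fold change was 8.1 ± 0.48 (approximate SE, adjusted p = 1.3e-12 by edgeR's quasi-likelihood test). The lowest ozone library was far above the highest control. AT3G23550, a transporter of the MATE efflux family, went from 0.244 to 2.04 CPM in controls (median 1.21) to 48.6 to 861 CPM under ozone (median 414), a log2 fold change of 8.26 ± 0.37 (adjusted p = 2.1e-14). UGT73B2 (AT4G34135), a glucosyltransferase of flavonols, had 3.86 to 10.5 CPM in controls (median 7.5) and 50.3 to 202 CPM under ozone (median 131), and rose by 4.18 ± 0.19 on the log2 scale (adjusted p = 2.8e-14). Its effect was even across lines, with log2 fold changes of 4.04, 4.29, 4.23 and 4.14 (line effects are listed throughout for C24 first, then Te, then CT101 and last Col-0). The promoters of these 4 genes, and of the auxin gene SAUR63 (AT1G29440) that fell, are shown because these genes stand at the ends of the range of changes or rose evenly, and their windows differ in the W box, a motif compared across all shared genes at the end. Each is the 250 bases before the gene start of the RefSeq annotation of TAIR10.1, read 5′ to 3′ on the gene's strand, with every W box (TTGACC or TTGACT on either strand), the site that WRKY factors bind, in capitals.
CYP82C3, chr4:15454833-15455082, plus strand: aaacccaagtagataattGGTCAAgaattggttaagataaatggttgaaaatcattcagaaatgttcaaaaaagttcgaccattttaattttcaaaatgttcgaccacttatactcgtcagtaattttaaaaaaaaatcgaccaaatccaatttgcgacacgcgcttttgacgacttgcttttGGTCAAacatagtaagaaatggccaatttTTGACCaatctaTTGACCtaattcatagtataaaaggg
AT1G26380, chr1:9128569-9128818, minus strand: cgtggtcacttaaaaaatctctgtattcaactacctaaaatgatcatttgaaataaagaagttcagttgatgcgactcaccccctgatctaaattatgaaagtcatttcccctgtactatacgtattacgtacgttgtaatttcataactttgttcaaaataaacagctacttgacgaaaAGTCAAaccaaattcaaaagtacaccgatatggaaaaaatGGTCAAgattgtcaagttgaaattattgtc
UGT73B2, chr4:16347435-16347684, minus strand: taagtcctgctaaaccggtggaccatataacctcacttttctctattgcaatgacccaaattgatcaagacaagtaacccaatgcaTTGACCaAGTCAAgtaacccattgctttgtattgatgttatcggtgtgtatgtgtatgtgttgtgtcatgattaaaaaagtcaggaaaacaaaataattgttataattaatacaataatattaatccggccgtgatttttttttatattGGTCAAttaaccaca
AT3G23550, chr3:8450800-8451049, minus strand: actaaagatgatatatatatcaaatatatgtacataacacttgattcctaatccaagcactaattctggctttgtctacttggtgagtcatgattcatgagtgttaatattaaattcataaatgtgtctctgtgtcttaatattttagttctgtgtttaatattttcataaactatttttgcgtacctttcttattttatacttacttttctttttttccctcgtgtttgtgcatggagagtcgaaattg
SAUR63, chr1:10305109-10305358, minus strand: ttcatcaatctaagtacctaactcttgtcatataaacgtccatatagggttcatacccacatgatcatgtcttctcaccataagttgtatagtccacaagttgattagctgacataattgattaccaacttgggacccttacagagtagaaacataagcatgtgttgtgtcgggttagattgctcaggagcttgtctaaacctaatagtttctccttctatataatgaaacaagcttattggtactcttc
These windows hold 4, 2, 3, 0 and 0 W boxes in the order shown. The named genes did not split this way. Among the largest rises, AT1G56060 and AT3G02840 have 2 each, but RHD2, CYP71A12 and AT5G61160 have 0. Among the named falls, SAUR20 and PRE1 have 0, but EXPA8 and OFP16 have 2 each.

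Other genes among the 12 largest rises were RHD2 (AT5G51060, also RBOHC), an NADPH oxidase that makes superoxide at the plasma membrane, CYP71A12, a P450 of camalexin and related indole compounds, and the acyltransferase AT5G61160. RHD2 had 0.407 to 1.17 CPM in controls (median 0.455) and 6.85 to 358 CPM under ozone (median 223), a log2 fold change of 8.11 ± 0.44 (adjusted p = 3e-13). All 12 ozone libraries were above all controls, as the naming rule required, and the C24 ozone libraries were the lowest of them. CYP71A12 went from 0.195 to 6.77 CPM (median 1.5) to 119 to 771 CPM (median 422), a change of 7.96 ± 0.53 (adjusted p = 6.4e-12). AT5G61160 had at most 0.408 CPM in controls and 3.26 to 450 CPM under ozone, with a change of 10.21 ± 0.38 (adjusted p = 4.5e-15). AT1G56060, a cysteine-rich transmembrane protein, changed by 8.44 ± 0.5 (adjusted p = 1.1e-12). AT3G02840, a protein with ARM repeats, changed by 8.01 ± 0.46 (adjusted p = 6.4e-13), but its locus overlaps AT3G02850 on the other strand and the counting was not stated to use strand. Some of the largest rises came from a floor of almost no counts. CYP715A1, another P450, had 3 counts in all 12 controls together and 1122 counts under ozone, a CPM ratio of 417 (95% Poisson interval 142 to 2020, counting error only). The oxidoreductase AT1G59950 had at most 0.545 CPM in controls and 0.798 to 155 CPM under ozone. The acyltransferase AT3G44830 had at most 0.198 CPM and 3.19 to 31.9 CPM, and AT1G71520, a factor of the AP2/ERF type, at most 0.64 CPM and 4.92 to 44.6 CPM. For none of these did the ozone libraries overlap the controls, which was a condition for naming them and not a separate result.

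**Figure D2:**
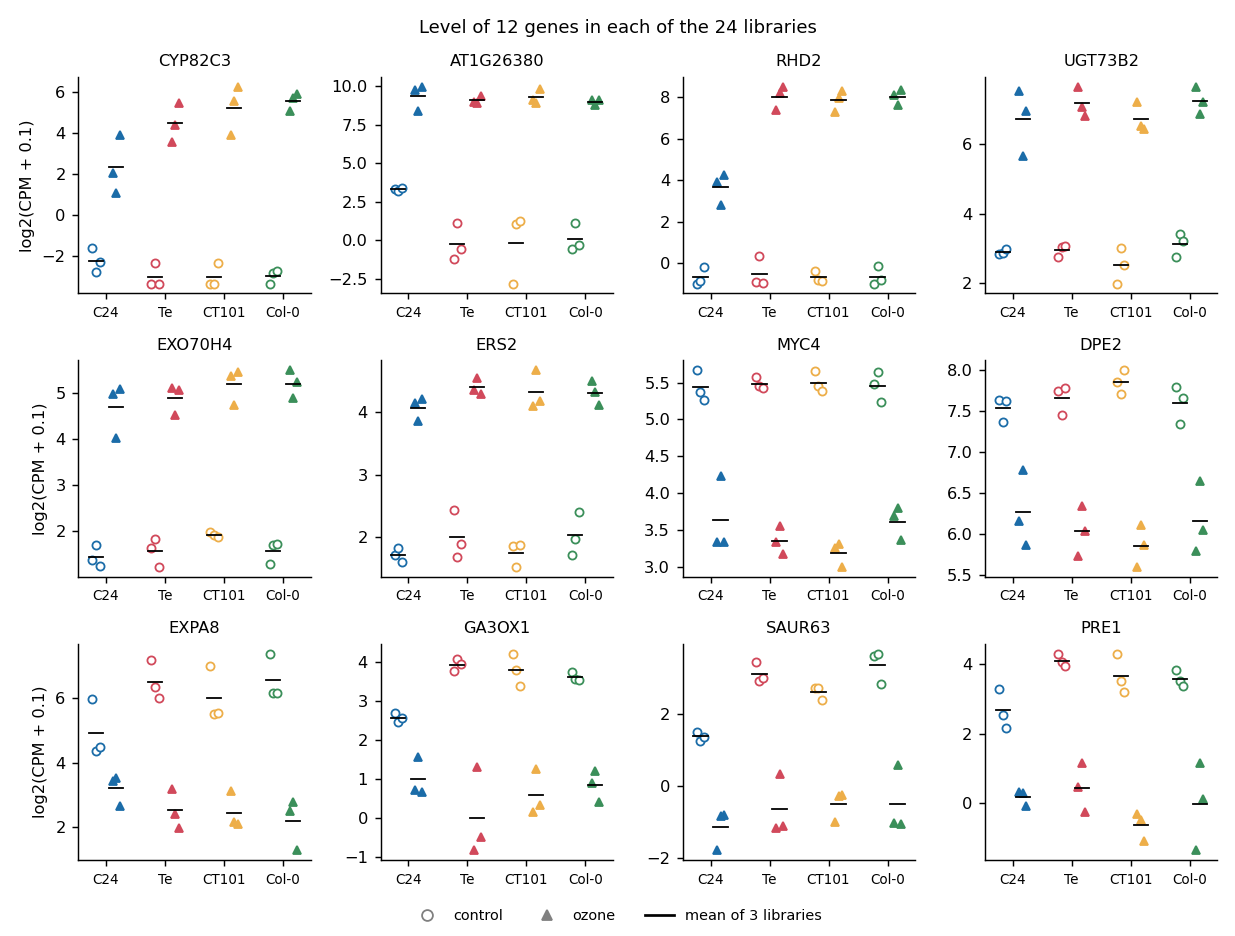
Level of 12 genes in each library as log2(CPM + 0.1) (y axis), with control and ozone libraries of the 4 lines side by side (x axis); each point is 1 library. UGT73B2, ERS2 and EXO70H4 rose by like amounts in the 4 lines, RHD2 rose least in C24 (4.62 against 8.64 to 8.8 in the others on the log2 scale), and SAUR63, PRE1 and EXPA8 fell in all.

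A few large rises were almost equal in the 4 lines. Among shared genes with no overlap of ozone and control libraries and an average rise of at least 4-fold, the smallest range of the line effects was that of AT2G31990, an exostosin family protein, whose line effects were 2.23, 2.29, 2.16 and 2.1. ERS2 (AT1G04310), an ethylene receptor that represses signalling until it binds the hormone, had 2.78 to 5.33 CPM in controls (median 3.51) and 14.4 to 25.4 CPM under ozone (median 19), a log2 fold change of 2.42 ± 0.1 (adjusted p = 7.4e-15). Its line effects ran from 2.28 to 2.61, so that each line rose by about the same amount. AT5G62570, the calmodulin-binding protein CBP60a, changed by 2.37 ± 0.08 with a range of 0.33, and the lectin receptor kinase AT4G04960 by 2.07 ± 0.08 with a range of 0.33. AT2G20010 (2.42 ± 0.12) and the uncharacterized AT3G18560 (3.08 ± 0.12) had ranges of 0.32 and 0.27. None of these ranges passed the test of a difference among lines. The genes were named for small ranges, so this outcome follows from the choice and does not show that the effects are equal.

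Genes that pass on a calcium signal rose widely. Beside each list, the shares of all genes tested that were higher and lower in all 4 lines, 21.6% and 17.7%, give the level to read it against. Of 53 calcium channels and pumps, 24 were higher and 9 lower in all 4 lines, with a median average log2 fold change of 0.55. AT4G37640, a calcium ATPase that pumps calcium out of the cytosol, went from 34.6 to 64.1 CPM (median 42.4) in controls to 326 to 1350 CPM (median 728), a change of 4.03 ± 0.18 (adjusted p = 2.2e-14). The channel CNGC10 rose by 3.77 ± 0.19, from a median of 4.31 to 73.1 CPM. The glutamate receptor GLR2.9 had at most 1.57 CPM in controls and at least 5.42 CPM under ozone. The hyperosmolality-gated channel OSCA1 (AT4G04340) and the mechanosensitive channel component MCA1 went the other way, from medians of 104 to 31 CPM (-1.63 ± 0.12, adjusted p = 2.4e-11) and of 45.1 to 23.2 CPM (-0.88 ± 0.07, adjusted p = 7.5e-11). Of 26 calcium-dependent protein kinases, 17 were higher and 0 lower in all 4 lines (median 1.64). CPK32 rose by 1.83 ± 0.09 with line effects from 1.72 to 1.97, while CPK9 rose by 2.93 ± 0.14 with line effects from 2.18 to 3.32, which differed among lines (adjusted p = 0.017). All 16 calmodulins and calmodulin-like proteins tested were called higher on average, and 9 in all 4 lines (median 1.55). CML42, a calcium sensor, went from a median of 5.06 to 105 CPM. Without the third C24 ozone library 5 calcium channels and pumps were lower in all 4 lines.

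Receptor kinases and the cascades below them rose as well, with an exception in the leucine-rich repeat class. Of 35 cysteine-rich receptor-like kinases, 26 were higher and 1 lower in all 4 lines (median 2.33), with 2 lower without the second ozone library of C24 or of Col-0. CRK11 went from 2.2 to 9.82 CPM in controls to 126 to 335 CPM under ozone (5.7 ± 0.25, adjusted p = 1.6e-14), and CRK31 from a median of 0.144 to 11.6 CPM (5.74 ± 0.22, adjusted p = 4.5e-15). No ozone library of either overlapped the controls. All 11 wall-associated kinases were called higher on average, 6 of them in all 4 lines (median 1.46). WAKL7 rose from a median of 7.35 to 145 CPM with line effects from 3.83 to 4.63. Of 47 receptor-like proteins, which lack a kinase domain, 19 were higher and 2 lower in all 4 lines (median 1.06), with 1 lower without the first C24 control, the first C24 ozone, the first Col-0 ozone or the third Col-0 ozone library. Of 139 leucine-rich repeat kinases, 35 were higher and 52 lower (median -0.26), although AT1G56140 rose by 4.18 ± 0.16, from a median of 7.84 to 146 CPM. Of 136 NLR genes, the intracellular immune receptors, 109 were called higher on average and 58 in all 4 lines, with 3 lower (median 0.9). The effects of 45 of these 136 differed among lines, beside 9.54% of all genes tested. Their summed control level ran from 2130 CPM in the lowest line to 4260 CPM in the highest. All lines were counted on loci of the TAIR10 build, and a part of sequence differences between lines in these counts was not tested. WRR4, which gives resistance to white rust, rose by 2.07 ± 0.11, and its ozone libraries, at 77.1 to 453 CPM, overlapped the controls, at 17.3 to 92.1 CPM. Of 40 MAP kinases and their upstream kinases, 18 were higher and 2 lower in all 4 lines (median 0.87), with 1 lower when any of 19 of the 24 libraries was left out. MPK3, a MAP kinase of stress and immune signalling, went from 59.1 to 111 CPM (median 72.5) to 331 to 577 CPM (median 441), and MAPKKK5, an upstream kinase, from a median of 29.1 to 127 CPM. Line effects of these kinases had ranges of 0.48 each.

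Transcription factors of stress responses rose together. Of 57 WRKY factors, 32 were higher and 1 lower in all 4 lines (median 1.98). Of 23 proteins with a VQ motif, which partner WRKY factors, 16 were higher and 0 lower (median 1.94). The VQ proteins AT1G17147 and AT2G22880 went from medians of 0.872 to 71.9 CPM and of 0.189 to 36.4 CPM. Of 49 ERF and DREB factors, 25 were higher and 3 lower (median 1.35). ERF1, an activator downstream of ethylene and jasmonic acid, had at most 0.931 CPM in controls and 9.04 to 30.5 CPM under ozone (6.03 ± 0.25, adjusted p = 6.6e-15). RAP2.2, which acts in responses to low oxygen, rose far less and evenly, from 52.8 to 62.8 CPM to 125 to 165 CPM, with line effects from 1.29 to 1.5. Of 55 NAC factors, 20 were higher and 1 lower (median 0.62), with the membrane-tethered NAC062 at 3.32 ± 0.19. The call downward was lost without any of 8 libraries, of which 4 were from C24, 3 from Te and 1 from CT101. BZIP60, which drives the unfolded protein response, went from a median of 19.1 to 227 CPM, and HSFA2, a heat shock factor, from 3 to 114 CPM. Of 12 heat shock factors 5 were higher and 1 lower (median 0.64), with 0 lower without the first C24 control, the first C24 ozone or the third C24 ozone library.

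Among the protein turnover lists given here, that of the 26S proteasome had the smallest median change. Of 21 U-box ubiquitin ligases, 10 were higher and 1 lower in all 4 lines (median 0.75), and PUB23, a negative regulator of immune signalling, rose by 5.16 ± 0.22, from a median of 2.86 to 105 CPM. Of 27 autophagy genes, 13 were higher and 0 lower (median 0.62), with 1 lower without the second C24 ozone library. ATG8H, a ubiquitin-like protein of the autophagosome, went from 3.4 to 7.04 CPM to 9.11 to 38.4 CPM (2.02 ± 0.14, adjusted p = 1.1e-11). AtATG18a rose by 1.62 ± 0.12 and the E1-like enzyme APG7 (ATG7) by 1.21 ± 0.09, while ATG8F fell on average by 0.58 ± 0.1 on the log2 scale (adjusted p = 2.5e-05). Of 34 subunits of the 26S proteasome, 24 were called higher and 2 lower on average, but only 8 and 0 in all 4 lines, with a median of 0.21. RPT3 rose by 1.09 ± 0.1 and RPN10, a ubiquitin receptor, by 0.52 ± 0.05. With library totals in place of TMM factors, 15 subunits were called higher and 6 lower on average, and without the third C24 ozone library 5 were higher in all 4 lines.

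**Figure D3:**
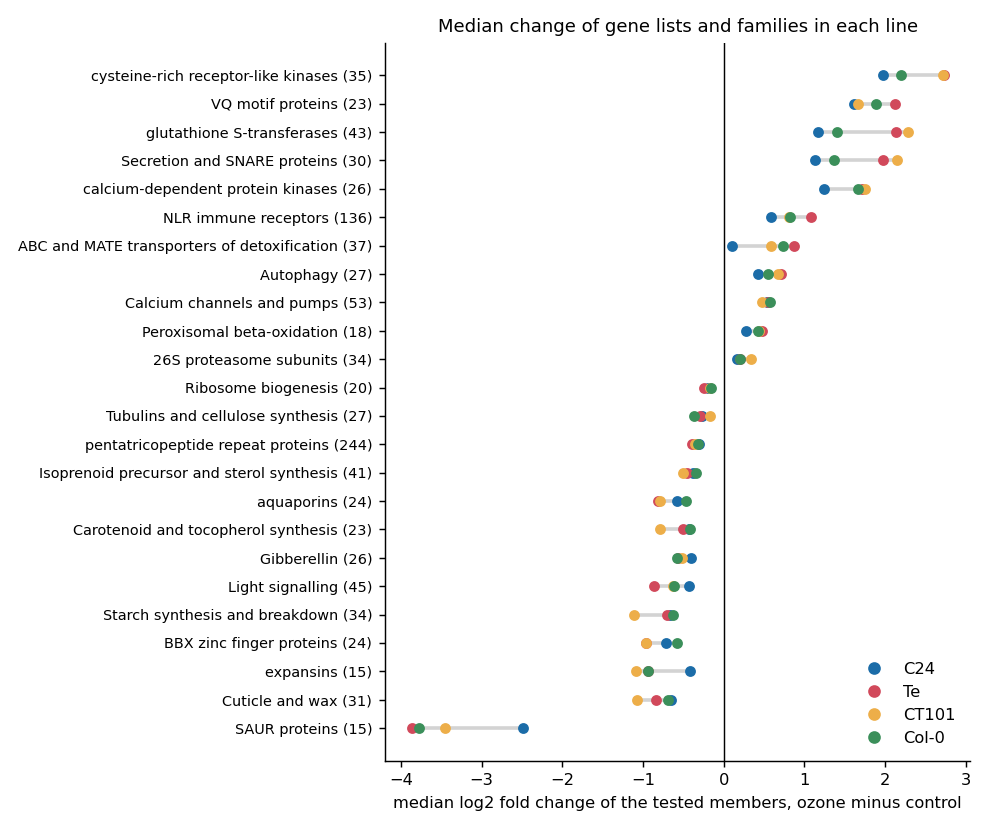
Median log2 fold change (ozone over control, x axis) of gene lists and families (y axis) in each of the 4 lines; each point is the median over the tested members in 1 line. The lists drawn are a chosen part of all. Their medians lie on the same side of 0 in all lines, from 1.97 to 2.73 for cysteine-rich receptor-like kinases down to -2.49 to -3.87 for SAUR proteins. Some lists not drawn had medians on both sides of 0, such as sugar transport (0.2, -0.27, -0.03 and 0.13).

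Genes of secretion rose widely, and transporters of detoxification changed in both directions. Of 30 genes for secretion and SNARE proteins, 19 were higher and 1 lower in all 4 lines, with a median of 1.73. EXO70H4 (AT3G09520), a subunit of the exocyst that tethers vesicles to the plasma membrane, went from 2.23 to 3.82 CPM (median 3.16) to 16.2 to 45.2 CPM (median 33.6), a change of 3.44 ± 0.13 (adjusted p = 4.5e-15). Its line effects were 3.36, 3.39, 3.34 and 3.68, so that it rose almost equally. EXO70B1, an exocyst subunit with a part in autophagic transport, rose by 2.27 ± 0.1, and EXO70H1 by 5.74 ± 0.27. SYP121 (PEN1), a syntaxin needed for resistance to fungal entry, went from 16.2 to 49.7 CPM to 227 to 540 CPM (3.92 ± 0.18, adjusted p = 3e-14). SEC1A, a regulator of SNARE assembly, was the member lower in all 4 lines (-0.64 ± 0.08, adjusted p = 2.3e-07). No member was lower without the first C24 control, the first C24 ozone, the first Te control or the third Te ozone library, and 2 were without the second control library of C24 or of CT101 or the second C24 ozone library. Of 37 ABC and MATE transporters of detoxification, 21 were called higher and 11 lower on average, and 14 and 3 in all 4 lines (median 0.63, and 0.1 in C24). AT1G59870 (PEN3, ABCG36), an exporter at sites of pathogen attack, rose from 164 to 660 CPM to 3370 to 7530 CPM (4.21 ± 0.21, adjusted p = 8.4e-14). The auxin transporters ABCB21 and ABCB4 went from medians of 8.32 to 318 CPM and of 5.9 to 77 CPM. Of 43 glutathione S-transferases, which conjugate reactive compounds, 23 were higher and 5 lower (median 1.88), among them GSTL1 (5.1 ± 0.27) and GSTU13 (1.88 ± 0.1). Of 50 UDP-glycosyltransferases, 19 were higher and 5 lower (median 0.82), the latter 2 or 3 without any of 8 single libraries, of which 3 were from C24, 1 from Te and 4 from Col-0. The 5 glutathione S-transferases lower in all 4 lines became 3 without the first or the third C24 ozone library. PER4, a secreted peroxidase, had at most 1.1 CPM in controls and 12 to 154 CPM under ozone (7.52 ± 0.46, adjusted p = 1.6e-12).

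Cytochromes P450 as a family did not move one way, with 34 of 145 higher and 32 lower in all 4 lines and a median of 0.04, which was -0.08 with library totals alone. Single genes changed strongly. CYP81F2, which hydroxylates indole glucosinolates, went from a median of 1.44 to 47.3 CPM, and MYB51 and MYB122, regulators of indole glucosinolates, went from medians of 4.05 to 99.4 CPM and of 0.024 to 8.16 CPM. The MYB family had no common direction, with 11 of 69 members higher and 8 lower in all 4 lines. Indole glucosinolate genes were not read as a list here. Of 15 genes of the shikimate pathway and of phenylalanine synthesis, 5 were higher and 0 lower in all 4 lines (median 0.34). DHS1, which starts the pathway, went from 62 to 108 CPM (median 84.7) to 138 to 790 CPM (median 414), a change of 2.13 ± 0.2 (adjusted p = 1.2e-09). The arogenate dehydratases ADT4 and ADT5, which make phenylalanine, rose by 3.06 ± 0.17 and 3.01 ± 0.28, whereas ADT2 fell on average by 0.25 ± 0.05. TAT3, a tyrosine aminotransferase induced by jasmonic acid, had a wide range of control levels, 2.84 to 148 CPM, and 313 to 1480 CPM under ozone (4.72 ± 0.62, adjusted p = 3.9e-07). Sterol synthesis was split. CYP710A1, which makes stigmasterol from sitosterol, went from 0.0977 to 2.04 CPM to 28.1 to 184 CPM (7.35 ± 0.37, adjusted p = 9.6e-14). CYP51G1 and SMO1-1, which act earlier in the pathway, fell by 0.67 ± 0.06 and 0.99 ± 0.08 on the log2 scale. Of the 41 genes of isoprenoid precursor and sterol synthesis, 3 were higher and 19 lower (median -0.42). Without the third C24 ozone library 12 of these 41 genes and 17 of the P450 genes were lower in all 4 lines.

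Fatty acid breakdown and the handling of sugar and nitrogen changed in parts. Of 18 genes of peroxisomal beta-oxidation, 8 were higher and 1 lower in all 4 lines (median 0.47). ACX1, an acyl-CoA oxidase that also acts in jasmonic acid synthesis, went from 65.9 to 142 CPM (median 111) to 244 to 1060 CPM (median 905), a change of 2.92 ± 0.18 (adjusted p = 1.5e-12). LACS7 and ACX2 rose by 1.75 ± 0.12 and 1.02 ± 0.08, and HCD1 fell by 0.84 ± 0.08 on the log2 scale. Of 29 sugar transporters 8 were higher and 4 lower, with a median of 0.01, and 2 were lower without the first C24 control, the first C24 ozone or the third C24 ozone library. STP4 and PMT5, importers at the plasma membrane, went from medians of 27.8 to 186 CPM and of 27.6 to 257 CPM, and ERD6 from 25.8 to 696 CPM. TMT2, which loads sugar into the vacuole, fell from a median of 47.5 to 17.7 CPM (-1.32 ± 0.11, adjusted p = 3.4e-10). Of 30 genes of nitrogen assimilation and transport, 8 were higher and 3 lower (median 0.23), and 0 were lower without the third C24 ozone library. Cytosolic glutamine synthetase GSR 1 (GLN1;1) and the ammonium transporter AMT2 went from medians of 79.2 to 596 CPM and of 13.2 to 386 CPM. Chloroplast glutamate synthase GLU1 and the ammonium transporter AMT1;2 fell, from medians of 2230 to 1160 CPM and of 30 to 4.47 CPM. Of 16 genes of trehalose metabolism 4 were higher and 5 lower. TPS5, a protein of the trehalose phosphate synthase family, fell from a median of 43.9 to 9.6 CPM (-2.1 ± 0.11, adjusted p = 2.5e-13), and the phosphatase gene TPPJ rose from 9.31 to 40.9 CPM. Of 34 genes of phospholipid signalling, 13 were higher and 4 lower (median 0.37), with PLDGAMMA1, a phospholipase D, at 3.31 ± 0.21. Without the first C24, the third C24 or the second Col-0 ozone library 2 were lower.

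Genes of cell expansion stood among the largest shared falls. Of the 12 genes named for the largest falls, 8 encode SAUR proteins, which promote cell expansion by activating proton pumps. SAUR63 went from 2.32 to 12.8 CPM (median 6.77) in controls to 0.193 to 1.41 CPM (median 0.437), a log2 fold change of -3.5 ± 0.22 (adjusted p = 2e-12). SAUR20 went from 3.66 to 15.3 CPM (median 6.1) to 0.0553 to 1.2 CPM (median 0.282), a change of -4.11 ± 0.3 (adjusted p = 3.5e-11). No ozone library of either reached the lowest control, which was a condition for naming them. AT5G18030 (SAUR21), AT1G29450 (SAUR64), SAUR24, AT1G29460 (SAUR65), SAUR29 and AT1G29500 (SAUR66) had changes from -4.13 to -3.54. Of these, the genes numbered 20, 21 and 24 lie in a cluster on chromosome 5 and those numbered 63 to 66 in a cluster on chromosome 1. Reads that copies share could be split among them, and this was not measured. Of 15 genes with a SAUR symbol, 13 were lower and 1 higher in all 4 lines (median -3.5). PRE1, a helix-loop-helix protein that promotes elongation, fell from 4.39 to 19.4 CPM to 0.296 to 2.14 CPM (-3.49 ± 0.25, adjusted p = 2.6e-11). EXPA8, an expansin that loosens cell walls, fell from 20.3 to 168 CPM (median 68.5) to 2.32 to 11.4 CPM (median 5.88), a change of -3.51 ± 0.36 (adjusted p = 7.2e-09). The uncharacterized genes AT5G66580 and AT5G54585 changed by -4.2 ± 0.34 and -3.49 ± 0.43. The most even of the large falls were in AGP21, an arabinogalactan protein of the cell surface (-2.49 ± 0.18, range 0.36), OFP16, an ovate family protein (-2.61 ± 0.21, range 0.48), AT1G10640, a pectin lyase-like protein (-2.16 ± 0.13, range 0.57), and MYC4, a factor of jasmonic acid responses. MYC4 had 37.6 to 50.7 CPM in controls and 7.91 to 18.8 CPM under ozone (-2.01 ± 0.11, range 0.57, adjusted p = 1.5e-13).

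Among genes of gibberellin metabolism, GA20OX1 and GA3OX1 fell and GA2OX6 rose. GA20OX1 and GA3OX1 catalyse the last steps that make active gibberellin, and GA2OX6 inactivates it. GA20OX1 went from 1.15 to 6.16 CPM (median 2.84) to 0.0615 to 0.727 CPM (median 0.17), a change of -3.65 ± 0.28 (adjusted p = 5.7e-11), and GA3OX1 from 5.39 to 18.5 CPM (median 12.6) to 0.464 to 2.86 CPM (median 1.52), a change of -2.84 ± 0.25 (adjusted p = 5.7e-10). GA2OX6 went from 0.297 to 1.57 CPM (median 0.55) to 12.6 to 93.3 CPM (median 45.5), a change of 6.09 ± 0.28 (adjusted p = 2.9e-14). In none of them did ozone and control libraries overlap. The receptor GID1B rose by 2.89 ± 0.25, with line effects of 1.55, 4.56, 2.93 and 2.8 that differed (adjusted p = 1.9e-05), and the DELLA repressor RGL1 fell by 1.39 ± 0.09 on the log2 scale. Of 26 gibberellin genes, 4 were higher and 10 lower in all 4 lines (median -0.53), and 5 or 6 were lower without the first C24 control library, the first C24 ozone library or the third C24 ozone library. Of 43 cytokinin genes, 8 were higher and 7 lower (median -0.08). The type-A response regulators RR3 and ARR9, which cytokinin induces and which dampen its signal, fell from medians of 32.2 to 8.85 CPM and of 40.9 to 12.3 CPM. The receptor HK2 fell by 1.01 ± 0.09 on the log2 scale, and CRF6, a cytokinin response factor, rose by 2.16 ± 0.15.

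Growth machinery was lower to a smaller extent. Of 15 expansins, 0 were higher and 7 lower in all 4 lines (median -0.83), with EXPA6 going from a median of 82.9 to 35.6 CPM. Of 27 tubulin and cellulose synthesis genes, 0 were higher and 11 lower (median -0.28). CESA1, a catalytic subunit of cellulose synthase in growing walls, went from 271 to 350 CPM to 120 to 233 CPM (-1 ± 0.09, adjusted p = 3.3e-10). COB, needed for oriented cellulose deposition, fell by 1.04 ± 0.09, and the tubulins TUB5 and TUB6 by 1.35 ± 0.11 and 0.75 ± 0.07 on the log2 scale. XTH9, which remodels xyloglucan, fell by 1.22 ± 0.08. Of 24 aquaporins, 2 were higher and 10 lower (median -0.52). TIP2, a water channel of the vacuole membrane, went from 769 to 1240 CPM to 223 to 464 CPM, and PIP3 (PIP2;7), one of the plasma membrane, from 303 to 426 CPM to 114 to 206 CPM. Ozone libraries of both lay below all controls. The 45 genes of cell cycle and DNA replication changed little, with 1 higher (0 without the third C24 ozone library) and 6 lower (median -0.15). Among them CYCD1;1 fell by 1.39 ± 0.09 on the log2 scale, and CYCP4;1, a cyclin outside this list, fell by 2.25 ± 0.14. Of 20 ribosome biogenesis genes, 9 were called lower and 0 higher on average, and 0 in all 4 lines (median -0.18). FIB2, a nucleolar protein, changed by -0.63 ± 0.19 (adjusted p = 0.004) and the RNA helicase gene MTR4 by -0.43 ± 0.09 (adjusted p = 1e-04). Of 244 pentatricopeptide repeat proteins, which process organelle RNA, 9 were higher and 52 lower (median -0.34), and 33 were lower without the third C24 ozone library. Of 11 SPL factors, 1 was higher and 2 lower (median -0.49), with 1 lower without the first C24 control, the first C24 ozone or the third C24 ozone library. SPL9, a factor of the transition to the adult phase, fell by 1.6 ± 0.12 and ARF10, an auxin response factor, by 1.57 ± 0.14 on the log2 scale. Of 29 RNA silencing genes, 3 were higher and 6 lower (median -0.28). AGO2, an Argonaute of antiviral defence, rose from a median of 19.7 to 88.5 CPM, and DRB3, a protein that binds double-stranded RNA, fell from 13 to 5.66 CPM.

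Chloroplast functions, light signalling and the cuticle were lower. The 16 chlorophyll a/b-binding proteins were all called lower on average and 7 in all 4 lines (median -0.81). LHCB2.3, an antenna protein, went from 1140 to 3200 CPM (median 2000) to 285 to 1090 CPM (median 632), a change of -1.6 ± 0.2 (adjusted p = 2e-07). RCA, which activates Rubisco, went from a median of 12900 to 6650 CPM, GAPA of the Calvin cycle from 3100 to 1790 CPM, and the photosystem I subunit PSAD-1 from 2220 to 1220 CPM. The highest ozone libraries of RCA and GAPA reached into the range of the controls. Of 23 carotenoid and tocopherol genes, 1 was higher and 15 lower (median -0.52), with CRTISO at -0.47 ± 0.05 and VTE1 at -0.81 ± 0.08. Of 34 genes of starch synthesis and breakdown, 2 were higher and 23 lower (median -0.72), the largest share of members lower in all 4 lines among the 23 pathway lists. DPE2, which processes maltose from starch breakdown, went from 162 to 256 CPM (median 206) to 48.4 to 110 CPM (median 65.7), a change of -1.56 ± 0.13 (adjusted p = 1.1e-10). The branching enzyme SBE2.2 and the glucan phosphatase LSF2 fell by 0.82 ± 0.07 and 1.05 ± 0.09 on the log2 scale, and AMY2, an amylase, rose by 1.49 ± 0.13. Of 45 light signalling genes, 8 were higher and 25 lower (median -0.6). The blue light receptor PHOT1 went from 207 to 375 CPM to 54.2 to 148 CPM (-1.78 ± 0.15, adjusted p = 3.4e-10), whereas the phytochrome PHYD rose from a median of 10.7 to 67.6 CPM and RUP1, a repressor of UV-B signalling, from 1.54 to 6.6 CPM. Of 24 BBX zinc finger proteins, 2 were higher and 13 lower (median -0.77), with BBX19 at -1.58 ± 0.14 and BBX12 at -0.96 ± 0.05. Of 31 cuticle and wax genes, 2 were higher and 14 lower (median -0.83). LTPG2, a lipid transfer protein of this list, fell by 1.12 ± 0.07. KCS10, which elongates fatty acids in the epidermis and is outside the list, went from 147 to 212 CPM to 56.2 to 108 CPM. LACS1, which activates fatty acids for wax and cutin, went the other way, from a median of 43.8 to 147 CPM. The 39 iron and metal genes mostly did not pass in all 4 lines, with 2 higher and 3 lower (median -0.26). Several of these counts in all 4 lines rested on single C24 libraries. Without the third of its ozone libraries, 0 chlorophyll a/b-binding proteins, 8 carotenoid and tocopherol genes, 16 light signalling genes and 6 BBX genes were lower in all 4 lines. Without its first control library it was 0 of the chlorophyll a/b-binding proteins and 7 of the BBX genes, and the latter also without its first ozone library. The chlorophyll a/b-binding proteins lower in all 4 lines numbered 4 without the first Col-0 control and 3 without the third Col-0 ozone library. The carotenoid and tocopherol gene higher in all 4 lines was lost without the first or the third C24 control or the third C24 ozone library, and 1 of the 2 higher BBX genes without the third Te control or the third CT101 ozone library. Of the iron and metal genes 1 was higher without the third C24 control, the first C24 ozone or the third C24 ozone library, and 1 was lower without the first C24 ozone library.

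Shared direction did not mean shared size. The range of the 4 line effects, the largest minus the smallest log2 fold change of a gene, had a median of 0.812 for shared genes that rose, 0.504 for those that fell and 0.538 for all genes tested. It was under 0.5 for 1269 of the 4445 genes that rose and 1807 of the 3644 that fell. It was over 2 for 653 and 44 of them, although 168 and 10 of these had a group with 3 or fewer counts, where the fitted effect depends on the prior count. The test of a difference among lines called 1961 genes, 9.54% of those tested, among them 1086 shared genes that rose and 112 that fell. That count was 1185 without the second C24 control library, 182 without the 8 libraries numbered 1 and 230 without the 8 numbered 3, and it was 3614 with the replicate number as a block and 3066 with DESeq2. Without the third C24 ozone library, 825 shared genes that rose and 908 that fell had a range under 0.5. The 44 genes that fell with a range over 2 became 26 to 69 with single libraries left out, 69 without the second CT101 ozone library and 26 to 29 without each of the C24 libraries.

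**Figure D4:**
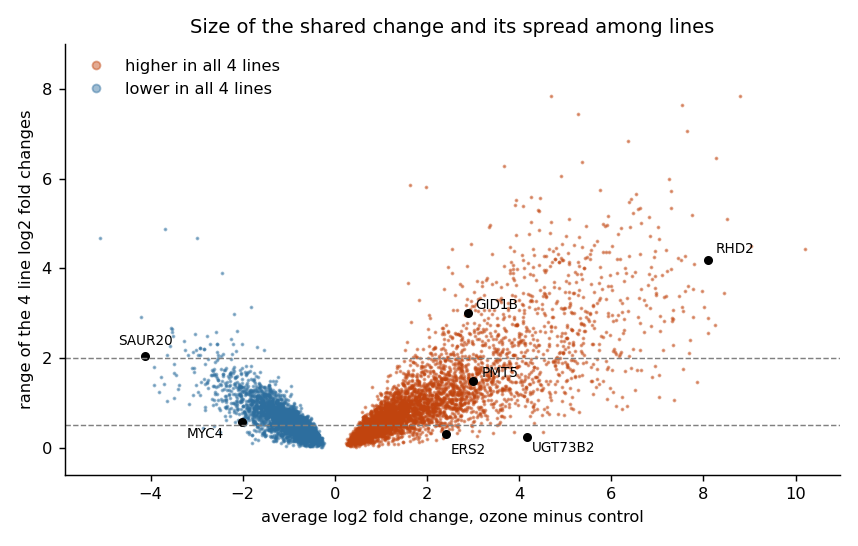
Range of the 4 line log2 fold changes (y axis) against the average log2 fold change of ozone over control (x axis) for the genes called in all 4 lines; each point is 1 gene and the dashed lines mark ranges of 0.5 and 2. The range widens with the size of the rise. Of the 653 genes that rose with a range over 2, 168 had a group of line and treatment with 3 or fewer counts.

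The smallest of the 4 effects was most often that of C24. It was the smallest for 3332 of the 4445 shared genes that rose (75%) and for 2638 of the 3644 that fell (72.4%). The median log2 fold change of the genes that rose was 1.13 in C24, against 1.74, 1.74 and 1.51 elsewhere, and that of the genes that fell was -0.66, -0.98, -1.09 and -0.82. The second C24 ozone library had the lowest score of all ozone libraries on the first principal component. Without it, C24 had the smallest effect for 59.5% of the 4630 genes then shared upward and 45.5% of the 3879 shared downward, with medians of 1.25 and -0.79 in C24. Without the ozone libraries numbered 2 of all lines, it had the smallest effect for 67.1% of 4506 and 66.6% of 4295 genes. Genes called higher in 3 lines lacked the call in C24 in 868 cases, in Col-0 in 269, in Te in 74 and in CT101 in 59. A missing call does not show that a line did not respond. Among the genes described above, the effect differed among lines for RHD2 (4.62 in C24 against 8.64, 8.8 and 8.8, adjusted p = 0.0055, but 0.0604 without the third C24 control library), ERD6 (2.98 against 5.69, 4.54 and 4.93, adjusted p = 0.0012) and PMT5 (1.97 against 3.33, 3.17 and 3.45, adjusted p = 0.00088). AMT2 differed as well (3.43 against 5.24, 5.02 and 5.34, adjusted p = 0.0055). In each of these C24 rose least, and all lines rose.

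A small set of genes was not shared because lines went opposite ways. A call upward in at least 1 line and downward in at least 1 other was made for 123 genes. RFO1 (AT1G79670), a wall-associated kinase of resistance to Fusarium, had line effects of -0.28, 1.77, -0.49 and 1.68 (adjusted p = 1.1e-06 for the difference); its locus overlaps AT1G79660 on the other strand. AT2G17150 (NLP1), a factor of the nitrate response family, had -0.24, 1.12, 1.19 and -0.36 (adjusted p = 1.2e-05). CYP76C6, a P450, had -0.41, -1.81, -2.39 and 1.02 (adjusted p = 8.7e-06). In these the average over lines hides effects of both signs. The lectin receptor kinase AT3G45430 rose in C24, Te and CT101 (2.06, 1.99 and 1.71) and had an effect of -2.67 in Col-0 (adjusted p = 6.4e-06). AT3G49970, an NPH3 family protein, had effects of 0.58, -1.38, -1.81 and 1.35 (adjusted p = 8.7e-06), and the uncharacterized AT5G63040 of -0.4, 0.46, -0.74 and -0.18 (adjusted p = 1.2e-05).

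The promoters of the shared genes differed in how often they held a W box. In the 250 bases before the gene start, TTGACC or TTGACT on either strand was found in 38.2% of 4439 shared genes that rose, 21.8% of 3639 that fell, 26.7% of 4549 not called on average and 28.4% of all 20522 promoters. At least 2 W boxes were found in 11.5%, 3.7%, 5.3% and 6.2% of them. With gene starts as the count tables give them, the shares of promoters with a W box were 42.2%, 20.3%, 26.6% and 29.2%. The CGCG box (ACGCGT or CCGCGT), which calmodulin-binding CAMTA factors bind, was found in 6.4%, 2.4%, 2.6% and 3.6% of promoters, and the GCC box (GCCGCC), the site of ERF factors, in 2.7%, 1.3%, 2% and 2%. The G box (CACGTG), the site of many bZIP and helix-loop-helix factors, was found in 7.5%, 7.5%, 6.5% and 7.2%. The core of the as-1 element (TGACG), bound by TGA factors, was found in 21.2%, 19%, 18.6% and 19.2%, and TATAAA in 47.5%, 44%, 45.2% and 45.7%. The windows had like base composition, with 31.1% G and C in genes that rose and 31.6% in genes that fell and in all. These are counts of letters with no test, and a match is not evidence of binding. Of the promoters printed above, those of AT3G23550 and SAUR63 hold no W box although these genes lie at opposite ends of the response.

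**Figure D5:**
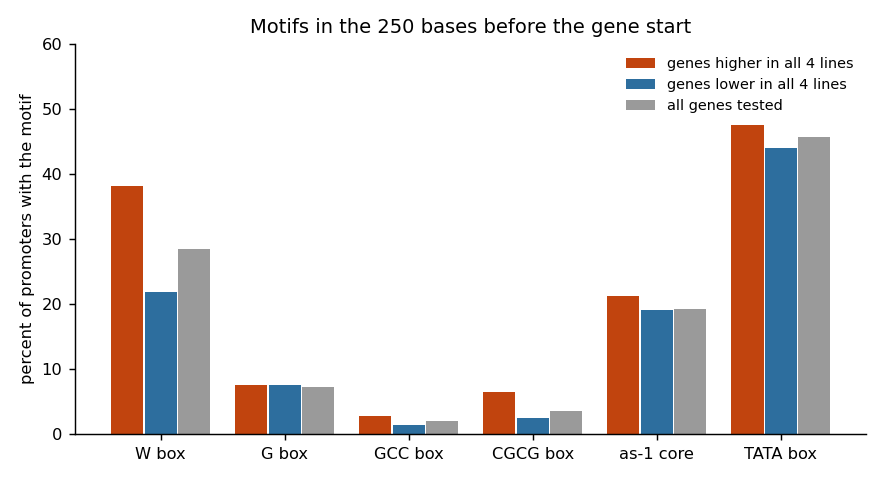
Percent of promoters (y axis) with each of 6 motifs (x axis) in the 250 bases before the gene start. The bars are genes higher in all 4 lines, genes lower in all 4 lines and all genes tested. The W box stands at 38.2% in genes that rose and 21.8% in genes that fell, and the TATA box at 47.5% and 44%.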

How the data were processed

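Whole-rosette RNA was made into libraries with the TruSeq v2 chemistry, per the labels. For each of 24 libraries the authors deposited 1 table of read counts by locus. FastQC, Bowtie2, SAMtools, HTSeq and the TAIR10 build are named in the submitters' processing notes, whose versions, order and strand setting are not given in the sources used here. Loci that overlap another on the opposite strand (3694 of 32678) are therefore uncertain, as are tandem copies. The 279 organelle loci hold 0 counts in every library.

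Low genes were removed with filterByExpr (at 8 groups, a minimum count of 10 and a minimum total of 15). TMM factors set the scale, and edgeR 4.0.16 (robust quasi-likelihood fit, R 4.3.3) gave all tests. The average effect came from a model of line plus treatment, and the effects per line and the F test of their differences from a model of 8 group means. All tests were 2-sided with Benjamini-Hochberg adjustment over 20554 genes. Errors of log2 fold changes are the size of the change divided by the square root of its F statistic over 24 libraries. They approximate a standard error and were not estimated by the fit itself. Levels are CPM scaled by TMM factors. Since the labels do not say that replicates came from separate exposures, p-values measure the spread between these pools. No 2 replicates were alike within counting noise (lowest chi-square per degree of freedom 6.94). Residuals of ozone and control libraries of a line with the same number correlated at 0.04 to 0.284. All 3 pairs passed 0.1 in C24 and CT101 but not in Te or Col-0, so the number was a block in an alternative only. Same-numbered libraries of the same treatment in different lines correlated more, with a median of 0.38 over 12 pairs of groups, against 0.132 within lines. The 12 libraries of each treatment may therefore not be independent units. The test of the average effect treats them as independent, so its p-values and the approximate errors may be too small.

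Members and lists were chosen with earlier results of these data known. Lists were described by counts and medians, without a test. Of 941 list entries, 867 matched 1 locus, 6 were corrected and 2 removed by hand after the files were read, as were family entries whose product differed. The naming rule first takes shared genes whose mean log2 CPM reached 1 and without overlap of ozone and control libraries. From these it names the 12 with the largest change each way. It also names the 8 higher and 5 lower with the smallest range of line effects at a log2 change of at least 2. Without these conditions it adds up to 4 members per list by p and up to 2 called against its direction. It also adds up to 2 members per family that passed in all 4 lines, and 6 genes called in opposite directions. Of 254 genes it gave, 151 are printed, chosen after their values were seen.

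Promoters were read from the RefSeq genome TAIR10.1 by Python 3.11.15 with pandas 2.3.3 and numpy 2.4.6; figures used matplotlib 3.10.9. Between 54% and 59.2% of loci per chromosome had at least 1 end equal to that annotation, so names and gene starts were taken from it. On simulated counts, 50 genes per fold were changed among 20011 tested. The average test recovered 60%, 92%, 98% and 94% at 1.5, 2, 4 and 8-fold, and the call in all 4 lines 2%, 56%, 94% and 78%. The test of line differences, on other genes changed in Te alone, recovered 4%, 36%, 80% and 90%. Of 19619 unchanged genes 8, 0 and 3 were called. Libraries were drawn independently and most genes were unchanged, unlike in these data. These values therefore do not give the error rate of the calls above. Alternatives used limma 3.58.1 and DESeq2 1.42.0.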

Additional observations from a re-analysis of the deposited data

Results flagged for a closer look

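The effect of ozone differed among the 4 lines, by edgeR's quasi-likelihood F test with Benjamini-Hochberg adjustment over all genes tested, for 31 of the genes printed above. Apart from the 6 chosen for opposite line effects, each of these changed in 1 direction in all 4 lines, so that the difference is one of size. MTR4 was among them by the sign of its effects but was not called in all 4 lines. Leaving out single libraries ended none of the differences of AMT2, AT1G29500, CPK9, ERD6, GID1B, MTR4, NAC062, PLDGAMMA1, PMT5, SYP121 and the 6 genes with opposite effects. It ended those of KCS10, RR3, GA3OX1 and TAT3 in 23, 21, 18 and 16 of 24 cases, of CNGC10 in 10, of AtATG18a and PUB23 in 5 each, of AT1G59870 in 4 and of AT3G23550 in 3. The 3 of AT3G23550 were the first and second C24 and the third Te control library. CYP71A12 lost the call without the second C24 control or the first C24 ozone library, WAKL10 without the first or the third C24 control library, RHD2 and PHYD without the third and AT1G59950 and DHS1 without the second, with adjusted p of at most 0.0641 for these 6. Leaving out all 8 libraries of 1 number ended 23, 13 and 20 of the 31 differences for the numbers 1, 2 and 3.

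Among receptors, channels and signalling proteins that rose, adjusted p values of the difference were 0.0055 for RHD2, 0.034 for CNGC10, 0.017 for CPK9, 0.021 for WAKL10, 0.031 for PUB23, 0.012 for NAC062, 0.011 for PLDGAMMA1, 0.019 for PHYD and 1.9e-05 for GID1B. In RHD2, CNGC10, CPK9, WAKL10, PUB23, NAC062, PLDGAMMA1, PHYD and GID1B the smallest effect was that of C24, and for GID1B the effect in Te, 4.56, was the largest. WAKL10, a wall-associated kinase, had line effects of 5.36, 8.74, 7.52 and 8.61, listed as in the report for C24 first and Col-0 last.

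Among transporters, secretion and autophagy genes that rose, the values were 0.032 for AT3G23550, 0.013 for SYP121, 0.026 for AT1G59870, 0.026 for AtATG18a, 0.00088 for PMT5, 0.0012 for ERD6 and 0.0055 for AMT2. Among enzymes they were 0.017 for CYP71A12, 0.0063 for AT1G59950, 0.022 for DHS1 and 0.043 for TAT3. Apart from AT1G59950, the smallest effect of each was that of C24. AT1G59950 had 1 control count in 1 of the lines, so that its line effects depend on the prior count and are not given.

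Among genes that fell, the difference passed for AT1G29500 (0.011), GA3OX1 (0.047), RR3 (0.045), KCS10 (0.045) and MTR4 (0.023). AT1G29500 had effects of -2.11, -4.77, -4.04 and -4.03, and GA3OX1 of -1.6, -3.82, -3.27 and -2.78. MTR4 had -0.15, -0.71, -0.77 and -0.12, the smaller changes being those of C24 and Col-0.

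The 6 genes called in opposite directions were RFO1 (1.1e-06), AT3G45430 (6.4e-06), AT3G49970 (8.7e-06), CYP76C6 (8.7e-06), AT2G17150 (1.2e-05) and AT5G63040 (1.2e-05). They were chosen for this difference, so these values describe them and support nothing further.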

How the results depend on the processing

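Counts of genes called on average stayed within 1.5 times under every alternative run: RLE factors, library totals alone, no filter, a replicate block, the mean of line contrasts, each line left out, each library left out, summed counts, voom with a random block and DESeq2. With counts summed over lines for each treatment and number, 3 against 3, 6881 genes were higher and 6821 lower. With voom and treatment and number as a random block (correlation 0.252) it was 7246 and 7384. Leaving out single libraries or numbers gave 7147 to 7913 higher and 7258 to 8254 lower on average, 2697 to 4630 higher and 1074 to 3951 lower in all 4 lines, and 182 to 2402 genes that differed among lines. In the same runs, shared genes with a close range (under 0.5) numbered 357 to 1690 higher and 344 to 2358 lower, and those with a wide range (over 2) 563 to 702 higher and 19 to 69 lower. Leaving out the ozone libraries numbered 2 of all lines, an alternative chosen after seeing the data, gave 7525 and 8494 genes on average and 4506 and 4295 in all 4 lines.

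At an adjusted p under 0.01 in each line, 2217 genes were lower in all 4 lines, 1002 of them with a close and 19 with a wide range. With each line fitted alone, 1125 genes lower in all 4 lines had a close range. In the 3 lines left without C24, close ranges numbered 2846 higher and 3743 lower and wide ranges 283 and 18; without CT101, 24 lower genes had a wide range. Fewer lines make a smaller range by construction, and the other causes were not tested. DESeq2 found 3066 genes that differed among lines. The replicate block gave 3614 such genes, 7967 higher and 8416 lower on average, and 4771 higher and 4387 lower in all 4 lines. Residuals of same-numbered libraries correlated across treatments within lines (0.04 to 0.284, all over 0.1 in 2 of 4 lines, median 0.132). They correlated more across lines within a treatment, where 11 of 12 pairs passed 0.1 throughout (lowest 0.019, median 0.38). Of 5800 repeats of the average effects of printed genes, 5799 kept direction and call; FIB2 lost its call with summed counts (adjusted p = 0.105). Of 1023 repeats of the differences among lines of 31 printed genes, 842 kept the call and 181 lost it, among them none of the 6 genes with opposite effects. Member counts of lists moved by over 1.5 times in 449 of 5382 repeats, with 75 and 67 of the 138 counts moved without the libraries numbered 3 and 1, 42 at an adjusted p under 0.01 in each line, and, of single libraries, most (32) without the third C24 ozone library. Depth limits genes with few control counts, at 0.0532 CPM per count.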

Other observations

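Several families, most of them not described above, were read in the same way. The level to read them against is again the 21.6% of all genes tested that were higher and the 17.7% that were lower in all 4 lines. Of 14 TCP factors, which regulate leaf growth, 2 were higher and 6 lower in all 4 lines, with a median average log2 fold change of -0.61. Of 31 homeodomain leucine zipper factors 3 were higher and 10 lower (median -0.48), and of 11 auxin response factors 1 was higher and 5 lower (median -0.56), which became 3 lower without the first C24 control or the third C24 ozone library and 0 higher without any of 8 libraries (1 from C24, 4 from CT101 and 3 from Col-0). Of 58 GDSL lipases, 8 were higher and 18 lower (median -0.44). Of 39 peroxidases, 13 were higher and 3 lower (median 0.51).

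The 69 MYB factors, with 11 higher and 8 lower (median 0.19), and the 23 bZIP factors, with 6 higher and 3 lower (median 0.26), had no common direction, and neither had 192 F-box proteins, with 24 higher and 31 lower (median -0.01). The MYB genes higher in all 4 lines became 7 and the F-box genes lower became 20 without the third C24 ozone library, and the latter also without the first C24 control. Of 101 ABC transporters 25 were higher and 20 lower (median -0.08), the latter 12 and 11 without the first and the third C24 ozone library.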
